A study of Arabidopsis thaliana with 36 samples.

Results

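COR47 (AT1G20440) and LTI30 (AT3G50970, also called XERO2) are dehydrin genes of Arabidopsis thaliana, and their transcripts were followed here across 6 cell populations of the root with and without salt. The members are the probe sets assigned to these 2 loci: each gene had 1 probe set that names it alone, out of 13513 probe sets with exactly 1 gene (13356 genes) on the array, and both passed the filter on low signals. Seedlings of ecotype Columbia, 6 days after germination, came from GFP lines, and each line defines a population by where its GFP is on. WER::GFP stands for the epidermis together with lateral root cap, PET111 for the columella root cap and CORTEX for the cortex. SCR::GFP stands for the endodermis plus quiescent center, WOL::GFP for the stele and S32 for the protophloem. Salt groups had been exposed to 140 mM NaCl during 1 h, after which protoplasts were made, and standard groups were kept on medium lacking that addition. Each of the 12 groups had 3 replicate arrays, all of them from digested and sorted cells, so that both media share the digestion and the sort. The study addresses how cell identity shapes the response to salt.

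Dehydrins are a class of late embryogenesis abundant (LEA) proteins. They are very hydrophilic, have little fixed structure in solution, and carry the lysine-rich K-segment that can bind membranes; they accumulate when plant cells lose water through drought, cold or salt. COR47 belongs to the acidic dehydrins, which were described as cold-regulated and dehydration-responsive and are thought to bind ions and protect proteins, whereas LTI30 is a basic dehydrin with repeated K-segments that binds lipid membranes. On the chromosomes each gene lies beside another dehydrin gene in the RefSeq annotation TAIR10.1: COR47 is next to ERD10 on chromosome 1, and LTI30 is next to XERO1 on chromosome 3. ERD10 and XERO1 were not analysed here, and how far their transcripts bind to these probe sets was not tested.

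Signals are linear MAS5 intensities, scaled by the authors to a common trimmed mean. Their precision is limited by 3 arrays a group. Replicates are numbered in the labels, with nothing said of separate plantings, so p-values measure array-to-array spread that may be technical. In sorted cells, fewer cells of a type and less RNA per cell cannot be told apart. Of 29 marker genes listed for the 6 populations, 10 had a probe set naming them alone in the platform table. Of these 10, 7 with salt and 8 on standard medium were highest in their labelled population. None of the 4 columella markers had such a probe set, so this population could not be checked. The cortical marker AT1G62500, counted among the 7 with salt, had a mean of only 24.5 there and stayed below the filter on low signals. The third salt array had the lowest maximum signal of the 3 in each of the 6 populations, between 9450 and 18116, against 11747 to 37839 on the first and second; on standard medium the third array had the lowest maximum in 4 of 6.

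LTI30 was higher with salt in all 6 populations, while COR47 ranged from an 11.8-fold rise in the epidermis to a difference in the columella that was not detectable with 3 arrays a group. In the columella the COR47 signal was 16767, 15384 and 9453 with salt, against 12418, 13964 and 7841 on standard medium. The arrays of the 2 media overlapped there, and the log2 change of 0.28 ± 0.31 (SE, 3 against 3 arrays) had a 95% interval from -0.35 to 0.91 (limma, adjusted p = 0.56). LTI30 in the same cells had 9536, 10537 and 5061 with salt, against 777, 424 and 760 on standard medium. Each salt array thus exceeded each standard array several-fold, and the log2 change of 3.63 ± 0.38 (adjusted p = 1.5e-07) was the ninth highest of 17633 probe sets tested in the columella, of which 5.27% were called higher. A log2 change is taken here on log2(signal + 16), which understates the change of low signals, and "called" or "passed" means a limma p under 0.05 after Benjamini-Hochberg adjustment.

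In the epidermis with lateral root cap, both genes rose strongly. COR47 had signals of 7569, 7684 and 5621 with salt, against 588, 484 and 643 on standard medium. LTI30 had 7242, 7858 and 5940 with salt, against 743, 785 and 985 on standard medium. The media were far apart for both genes, with log2 changes of 3.56 ± 0.31 for COR47 (adjusted p = 8.4e-10) and 3.04 ± 0.38 for LTI30 (adjusted p = 4.0e-07), where 15.6% of probe sets were called higher. The 5′ over 3′ ratio of the GAPDH control probe sets, a gauge of how complete the copied transcripts are, differed between the same arrays, at 0.2485 ± 0.1396 with salt and 1.522 ± 0.1635 on standard medium (SD, n = 3 each). With the log2 of that ratio as a covariate the changes were 2.47 for COR47 and 2.07 for LTI30, and both passed the test. Here and below, the covariate's slope comes only from differences between arrays of the same group. The epidermal ratios did not overlap (0.141 to 0.406 with salt, 1.41 to 1.71 on standard medium). The slope is thus extended across a gap. With salt the third array had the highest ratio of its group in every population, besides the lowest maximum signal. The part of the third arrays in the slope was not tested. Of 3 epidermal markers measured, AT4G25250 fell in the epidermis, by 2.38 on the log2 scale (adjusted p = 0.0226), and none rose. The summed signal of the 3 was 1054 with salt and 3677 on standard medium, against at most 667 and 1043 in any other population. Singly, EXPA7 with salt was highest in the cortex (376, against 319 in the epidermis). EXPA18 on standard medium was highest in the stele (436, against 390). Among tested markers of other populations, only the protophloem marker OPS was called in the epidermis, as higher (1.05, adjusted p = 0.0252). The part of these markers in the result was not tested.

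In the cortex both genes reached their highest signals. COR47 had 31403, 28844 and 10510 with salt, against 4901, 5469 and 5556 on standard medium. LTI30 had 20476, 21364 and 9438 with salt, against 2828, 3744 and 3837 on standard medium. For both genes the third salt array lay far below the first and second, yet above each standard array. The log2 changes were 2.00 ± 0.31 for COR47 (adjusted p = 1.6e-05) and 2.22 ± 0.38 for LTI30 (adjusted p = 5.4e-05), in a population where 22.4% of probe sets were called higher. Quantile normalization, which makes the distributions of all arrays equal, left changes of 0.84 for COR47 and 1.44 for LTI30, both past the test. The GAPDH ratio was 0.15 ± 0.076 with salt and 0.4437 ± 0.05955 on standard medium in these cells (SD, n = 3 each), without overlap, and with it as a covariate the changes were 1.32 for COR47 and 1.62 for LTI30, again past the test. The cortical marker AT1G09750, an aspartyl protease gene, fell by 3.40 in the same comparison (adjusted p = 6.3e-08), and the summed signal of the 2 cortical markers was 259 with salt and 2666 on standard medium. The other of them, AT1G62500, stayed below the filter, at 24.5 and 16.4. Among markers of other populations, the endodermal AGL42 (1.18, adjusted p = 0.0068) and the stele marker PHV (1.07, adjusted p = 0.0162) rose in these cells. The endodermal AT4G28100 fell by 1.18 (adjusted p = 0.00047). The part of this in the result was not tested.

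In the stele, LTI30 had 8866, 9024 and 6792 with salt, against 569, 706 and 1805 on standard medium, a log2 change of 3.16 ± 0.38 (adjusted p = 8.2e-07). The third standard array was well above the other two, and without it the change was 3.65. COR47 had 11442, 11382 and 8432 with salt, against 4980, 5025 and 6014 on standard medium. Its change of 0.95 ± 0.31 (adjusted p = 0.0230) was thus smaller on the log2 scale, with arrays that did not overlap, and 11.5% of probe sets were called higher. This call was lost when standard replicate 1 or 2, or salt replicate 1 or 2, was left out (adjusted p = 0.0810, 0.0767, 0.0765 and 0.0900). Of the 2 stele markers measured, LHW fell in these cells by 1.17 (adjusted p = 0.0193) and PHV had -0.20 ± 0.35 (adjusted p = 0.701), and the cortical marker AT1G09750 fell by 1.35 (adjusted p = 0.0075). The summed signal of the stele markers was 587 with salt and 977 on standard medium, against at most 659 and 695 in any other population, and the part of this in the result was not tested.

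In the endodermis with quiescent center, LTI30 had 12879, 15473 and 8093 with salt, against 4100, 3686 and 2190 on standard medium. The change of 1.86 ± 0.38 passed the test (adjusted p = 0.0035) in a population where 1.5% of probe sets were called higher. COR47 had 18821, 24235 and 11421 with salt, against 10549, 9029 and 9979 on standard medium. All salt arrays were above all standard arrays, but the change of 0.82 ± 0.31 did not pass (adjusted p = 0.187). Without the third salt array it was 1.12 (adjusted p = 0.0395), and on replicates 1 and 2 of all groups it was 1.13 (adjusted p = 0.00038). The use of replicates 1 and 2 alone, here and below, was chosen after seeing the data. The third salt array was the lowest of its group for COR47 in 6 of 6 populations, so leaving it out raises the salt mean. The summed signal of the 2 endodermal markers measured was 474 with salt and 600 on standard medium. In other populations it was at most 518 and 515. With salt the marker AGL42 had 182 in the endodermis and 357 in the cortex. The part of these markers in the result was not tested.

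In the protophloem both changes were among the smaller ones. LTI30 had 5882, 3924 and 4558 with salt, against 1075, 2070 and 2293 on standard medium, a log2 change of 1.45 ± 0.38 (adjusted p = 0.0060). COR47 had 13025, 12151 and 9466 with salt, against 8547, 8289 and 7089 on standard medium. This difference of 0.52 ± 0.31 did not pass (adjusted p = 0.216), although the arrays did not overlap, and 11.8% of probe sets were called higher. After quantile normalization it was 1.10 (adjusted p = 0.00012), on replicates 1 and 2 alone 0.58 (adjusted p = 0.0241), and with the GAPDH covariate 1.24 (adjusted p = 0.0060). The GAPDH ratio was 0.162 ± 0.088 with salt and 0.04992 ± 0.03184 on standard medium in these cells (SD, n = 3 each), and its part in the difference was otherwise not tested.

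**Figure D1:**
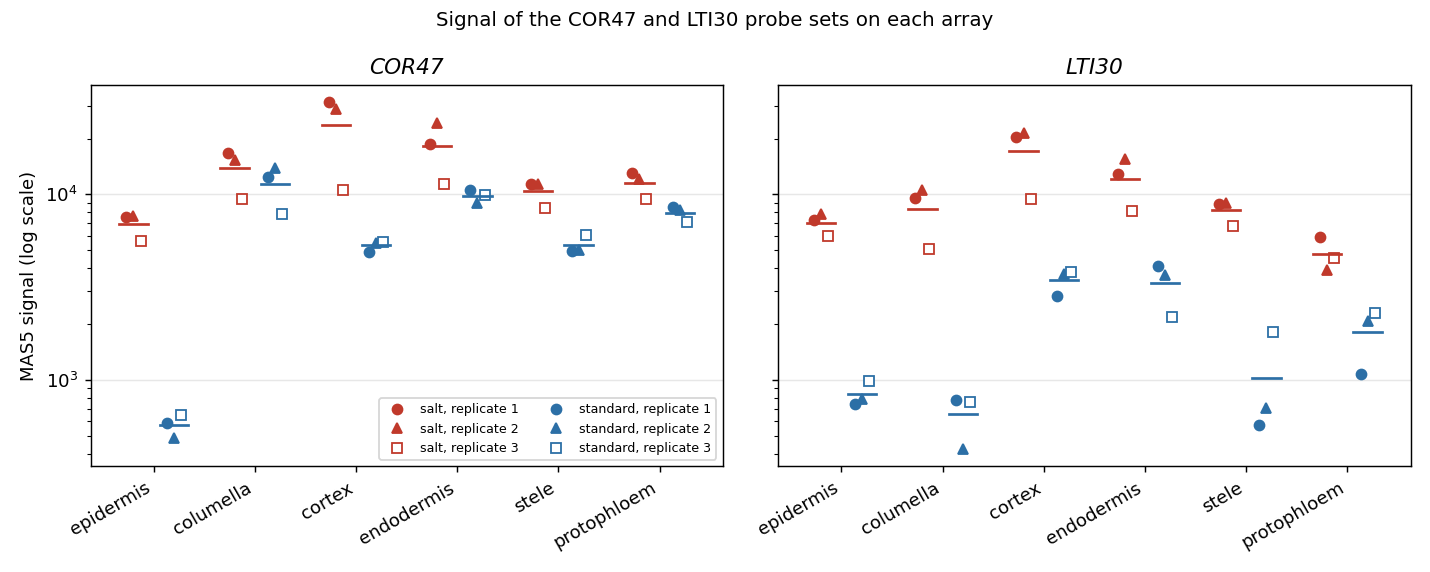
MAS5 signal (log axis) of the COR47 and LTI30 probe sets on each array, by population, with salt arrays in red to the left of standard arrays in blue; symbols give the replicate, open squares mark the third array, and horizontal lines are the means of 3 arrays. COR47 on standard medium lies between 484 and 643 in the epidermis and at 4901 or more elsewhere, and the third salt array is the lowest of its group in 6 of 6 populations for COR47 and in 5 of 6 for LTI30.

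Averaged over the 6 populations, LTI30 rose by 2.56 ± 0.15 on the log2 scale, which is 5.89-fold (adjusted p = 3.1e-14, 18 against 18 arrays). COR47 rose by 1.36 ± 0.13, or 2.56-fold (adjusted p = 4.3e-10), and 20.8% of probe sets were called higher in this mean response. LTI30 passed the test in 6 of 6 populations, as did 0.414% of all probe sets tested. COR47 passed in 3 of 6, the epidermis, the cortex and the stele. The salt arrays lay above all standard arrays in 6 populations for LTI30, which held for 1.01% of probe sets, and in 5 for COR47. By population, 29.8% of probe sets showed such a separation upward in the epidermis and 29.8% in the cortex, 16.1% in the stele, 15.9% in the protophloem, 9.02% in the columella and 7.81% in the endodermis.

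The salt response of each gene differed between the populations. For COR47 the moderated F of the 5 differences between the 6 responses was 16.04 (adjusted p = 2.2e-05), and for LTI30 it was 5.02 (adjusted p = 0.0081); 46.6% of probe sets passed this test. Against the mean of the other 5 populations, the COR47 response was 2.65 ± 0.34 higher in the epidermis on the log2 scale (adjusted p = 3.9e-06), where 8.31% of probe sets were called higher; with the GAPDH covariate this difference was 1.60 (adjusted p = 0.0053). It was lower in the columella, by -1.29 ± 0.34 (adjusted p = 0.0356), where 2.08% of probe sets were called lower; this call was lost without any 1 of 5 of the 6 columella arrays, with adjusted p between 0.0573 and 0.139. In the protophloem the COR47 response differed from that mean by -0.998 ± 0.337 (adjusted p = 0.0348) and the LTI30 response by -1.34 ± 0.41 (adjusted p = 0.0218), in a comparison that called 10.2% of probe sets lower. With the GAPDH covariate the COR47 difference in the protophloem turned to 0.12 and that of LTI30 was -0.34, and neither passed. Leaving out a single protophloem array ended the COR47 call for 4 of the 6 (standard replicates 1 and 2, salt replicates 2 and 3), with adjusted p up to 0.108. It ended the LTI30 call for 3 of the 6 (standard replicates 2 and 3, salt replicate 2), with adjusted p up to 0.0873. For LTI30 the response in the columella exceeded the mean of the others by 1.28 ± 0.41 without passing (adjusted p = 0.0954); without the third salt array of the columella it was 1.61 (adjusted p = 0.0223), and with the GAPDH covariate 1.42 (adjusted p = 0.0292). The COR47 difference in the cortex, 0.77 ± 0.34 (adjusted p = 0.0749), was 1.27 without salt replicate 3 (adjusted p = 0.0015) and turned to -0.49 after quantile normalization (adjusted p = 0.0773). The LTI30 difference in the stele, 0.72 ± 0.41, was 1.21 without standard replicate 3 (adjusted p = 0.0496).

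**Figure D2:**
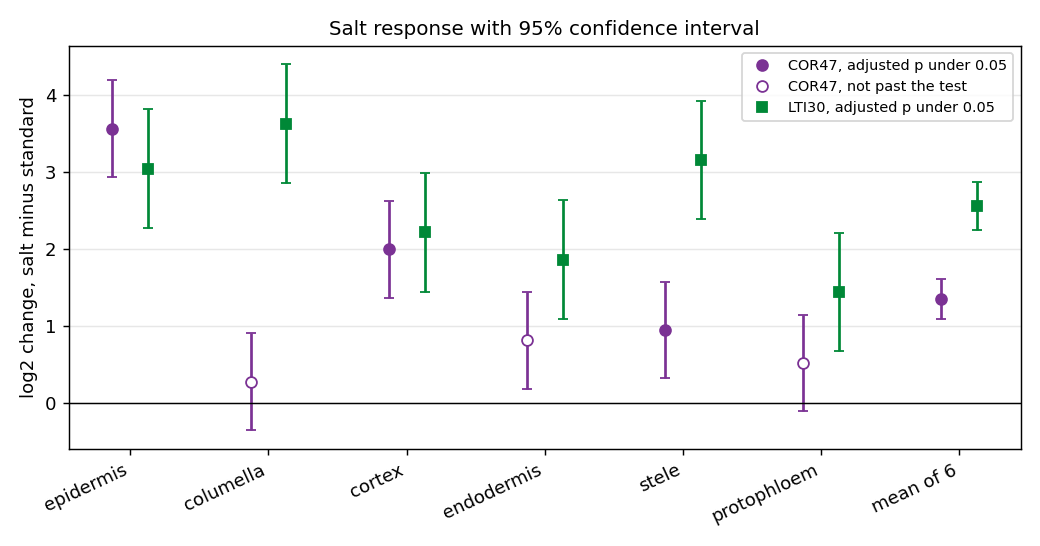
Change in log2(signal + 16), salt minus standard, of COR47 (purple circles) and LTI30 (green squares) in each population and averaged over the 6; bars are 95% confidence intervals of the limma fit to all 36 arrays, and open symbols did not pass the test. The COR47 change lies between 0.28 in the columella and 3.56 in the epidermis, and the LTI30 change between 1.45 in the protophloem and 3.63 in the columella.

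The 2 responses were then compared within arrays, as log2(COR47 + 16) minus log2(LTI30 + 16) on each array. Only the change of this difference between media is used, since signals of different probe sets are not on one scale. In the columella the difference averaged 0.753 ± 0.185 with salt and 4.10 ± 0.832 on standard medium (SD, n = 3 each). In the stele it averaged 0.338 ± 0.0282 with salt and 2.54 ± 0.720 on standard medium. In these 2 populations and in the endodermis (-1.05) all salt arrays lay below all standard arrays, so that the log2 change of LTI30 exceeded that of COR47 there. The shift was -0.92 in the protophloem and -0.22 in the cortex, where the arrays of the media overlapped. In the epidermis the shift ran the other way, by 0.52, with all salt arrays above all standard arrays. Averaged over the 6 populations the shift was -1.20, with 5 negative and 1 positive (permutation test of the medium labels within populations, two-sided, 100000 resamples, p = 7.0e-05).

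**Figure D3:**
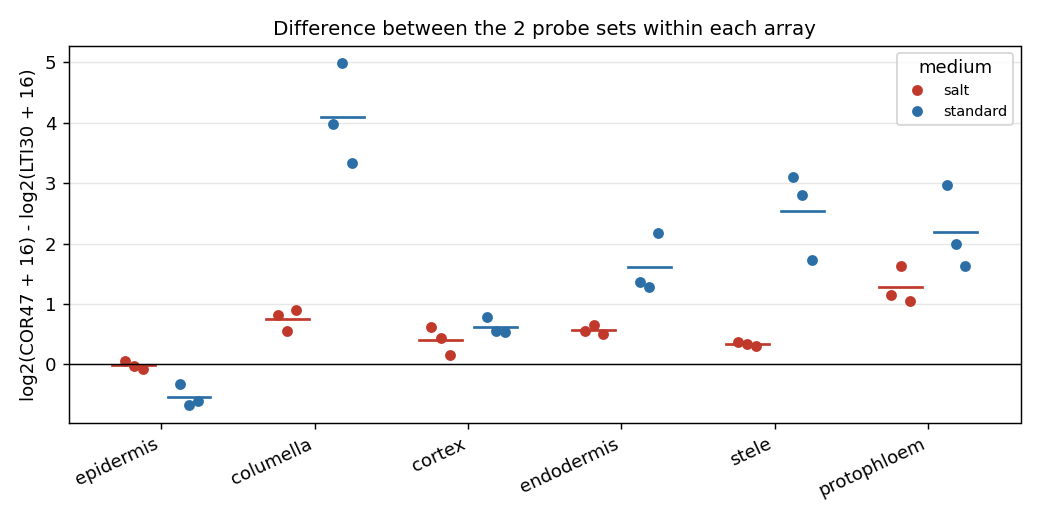
Difference between the log2(signal + 16) values of COR47 and LTI30 on each array, by population, salt in red to the left of standard in blue; points are arrays and lines are means of 3. The standard arrays reach 4.99 in the columella, whereas the 3 salt arrays there lie between 0.545 and 0.899.

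The order of the populations was then set out on each medium, and with salt the group means spanned a narrower range. This narrowing was not tested, and the ranges of all probe sets were not compared. Over all combinations of probe set and pair of populations, 29.3% passed with salt and 38.6% on standard medium. With salt COR47 averaged 23586 ± 11396 in the cortex, 18159 ± 6433 in the endodermis, 13868 ± 3885 in the columella, 11548 ± 1855 in the protophloem, 10419 ± 1721 in the stele and 6958 ± 1160 in the epidermis (SD, n = 3). The range of the group means was 1.62 on the log2 scale with salt. On standard medium it was 4.25, with the epidermis 3.19 below the next population. With salt LTI30 averaged 17093 ± 6644 in the cortex and 12148 ± 3744 in the endodermis, then 8378 ± 2916 in the columella, 8227 ± 1246 in the stele, 7013 ± 980 in the epidermis and 4788 ± 999 in the protophloem. Its range was 1.76 with salt and 2.42 on standard medium. Neighbours in these orders did not pass for either gene, although the COR47 cortex passed above the endodermis without the third salt array of the cortex (0.80, adjusted p = 0.0237) and on replicates 1 and 2 alone (0.49, adjusted p = 0.0389). The COR47 epidermis passed below the stele after quantile normalization (-0.70, adjusted p = 0.0052) and on replicates 1 and 2 alone (-0.58, adjusted p = 0.0257). Over all pairs, 5 of 15 pairs passed for COR47 and 5 of 15 for LTI30, where 29.3% of all combinations of probe set and pair did. For COR47 the cortex was above the stele, the protophloem and the epidermis, and the columella and the endodermis were above the epidermis. For LTI30 the cortex was above each population other than the endodermis, and the endodermis was above the protophloem. The F-test between populations with salt gave 6.94 for COR47 (adjusted p = 0.00054) and 5.23 for LTI30 (adjusted p = 0.0029), and 73.1% of probe sets passed it.

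On standard medium COR47 was far brighter in 5 of the populations than in the sixth. Its mean signal was 11408 ± 3184 in the columella (SD, n = 3), 9852 ± 768 in the endodermis, 7975 ± 778 in the protophloem, 5340 ± 584 in the stele and 5308 ± 356 in the cortex, against 572 ± 80.9 in the epidermis. The epidermis also stood apart in the GAPDH ratio on this medium. Its mean ratio was 1.522, against means from 0.04992 in the protophloem to 0.4437 in the cortex. The part of this in the low epidermal signal was not tested. The epidermis was called lower than each other population: the cortex, next above it, was higher by 3.19 ± 0.31 on the log2 scale (adjusted p = 1.5e-09), and its arrays did not overlap those of the epidermis. The other neighbours in this order did not pass, with differences of 0.17 between columella and endodermis, 0.31 between endodermis and protophloem, 0.58 between protophloem and stele and 0.01 between stele and cortex. The endodermis passed above the protophloem after quantile normalization (0.64, adjusted p = 0.0069) and with the GAPDH covariate (1.14, adjusted p = 0.0071), and the protophloem passed above the stele on replicates 1 and 2 alone (stele minus protophloem -0.75, adjusted p = 0.0033). The differences between populations passed the F-test (F = 52.2, adjusted p = 1.7e-12), as did those of 85.5% of probe sets. Of the 15 pairs of populations 9 were called, where 38.6% of all such combinations were.

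LTI30 followed another order on standard medium. It averaged 3470 ± 557 in the cortex and 3325 ± 1005 in the endodermis, then 1812 ± 649 in the protophloem, 1027 ± 678 in the stele, 838 ± 129 in the epidermis and 654 ± 199 in the columella (SD, n = 3). No neighbours in this order passed the test, the nearest being protophloem against stele (0.92 ± 0.38, adjusted p = 0.0538) and endodermis against protophloem (0.89 ± 0.38, adjusted p = 0.0636). Both are near the threshold: the first passed without stele standard replicate 3, protophloem standard replicate 1 or the third array of any of 4 other groups (adjusted p down to 0.0036), and the second without the third array of any of 4 groups (adjusted p down to 0.0287). The first also passed with a filter at the 60th percentile (adjusted p = 0.0478) and on replicates 1 and 2 alone (adjusted p = 0.0019). The second also passed after quantile normalization (0.96, adjusted p = 0.0191), with the GAPDH covariate (1.63, adjusted p = 0.0056) and on replicates 1 and 2 alone (1.37, adjusted p = 0.00059). The epidermis, 0.39 above the columella, was 1.56 above it with the covariate (adjusted p = 0.0382). Of the 15 pairs 9 passed, and the F was 15.1 (adjusted p = 7.5e-07). The columella, where COR47 was at its highest mean, was thus where LTI30 was at its lowest, and the cortex exceeded it by 2.42 ± 0.38 (adjusted p = 6.3e-06).

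Outside the epidermis on standard medium, COR47 was among the brightest probe sets of the arrays. In that group its rank from the top ran from 2840 to 3678. Over the 18 salt arrays its rank from the top ran from 2 to 68, and it was within the top 10 on 15 of them; on standard medium this held for 3 of 18 arrays, all from the columella. LTI30 was within the top 10 on 4 of 18 salt arrays and on 0 of 18 standard arrays. In the columella the COR47 signal was 75.3% to 90.2% of the brightest signal on the array with salt and 68.1% to 99.2% on standard medium. With salt it was as near the top in the stele, at 89.2% to 95.6%, in the protophloem, at 78.0% to 96.2%, and in the endodermis, at 81.1% to 91.5%. LTI30 in the columella was at 48.3% to 51.6% with salt and 2.31% to 9.62% on standard medium. Whether signals near the top of an array are compressed, and the part of this in the COR47 responses of these 4 populations, was not tested.

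Dehydrin and other LEA genes were taken from lists of loci chosen with earlier results of these data known. Of 10 dehydrin genes listed, 6 had a probe set of their own and 4 passed the filter on low signals; AT4G39130 and LEA (AT2G21490) stayed below it, with group means of at most 26.4 and 19.6. These 4 include COR47 and LTI30 themselves, so only 2 were other dehydrins, AT4G38410 and AT1G54410. All 4 passed as higher in the mean response (median 1.89, against -0.09 over all probe sets, of which 20.8% were called higher). By population, beside the share of all probe sets called higher, 4 of 4 were higher in the epidermis (15.6%) and in the cortex (22.4%), 3 in the stele (11.5%), 2 in the columella (5.27%), 2 in the endodermis (1.5%) and 1 in the protophloem (11.8%). None was called lower. Without COR47 and LTI30, 2 of 2 were higher in the epidermis and in the cortex. In the stele, the columella and the endodermis 1 of 2 was, and in the protophloem 0 of 2. AT4G38410 rose in 5 populations, by 3.69 ± 0.57 in the cortex and 1.71 ± 0.57 in the columella, and had 1.31 ± 0.57 in the protophloem (adjusted p = 0.0930). Its signal in the columella was 9898 ± 2474 with salt and 3406 ± 1900 on standard medium (SD, n = 3 each), higher than its mean in any other population on the same medium. AT1G54410, the small histidine-rich dehydrin HIRD11, rose in the cortex (1.65 ± 0.39) and the epidermis (1.14 ± 0.39) and had -0.98 ± 0.39 in the protophloem (adjusted p = 0.0670). Its protophloem signal averaged 7551 ± 3650 with salt and 14125 ± 6009 on standard medium.

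Among 23 other LEA genes listed, 15 had a probe set of their own and 10 passed the filter, of which 8 rose and none fell in the mean response (median 1.44, where 20.8% of all probe sets rose). Among these 8, AT4G36600 was near the threshold (0.40 ± 0.17, adjusted p = 0.0469) and passed in no single population. Its signals were low, with means such as 6.66 in the cortex and 23.5 in the endodermis on standard medium. By population 7 of the 10 rose in the epidermis (15.6% of all probe sets), 7 in the cortex (22.4%), 7 in the stele (11.5%), 5 in the columella (5.27%), 4 in the endodermis (1.5%) and 3 in the protophloem (11.8%). LEA4-5, AT3G15670 and AT3G17520, all LEA proteins outside the dehydrin class, rose in all 6 populations, as LTI30 did. In the columella, where the COR47 change was 0.28, AT3G17520 rose by 3.52 ± 0.50, AT3G15670 by 2.66 ± 0.46 and AT3G53040 by 2.15 ± 0.47. COR47 was not alone in lacking a call there. The dehydrin AT1G54410 had 0.32 ± 0.39, AT2G42560 0.02 ± 0.36 and AT2G46140 0.48 ± 0.40. LEA18 had 0.54 ± 0.41, AT4G36600 0.67 ± 0.41 and AtLEA4-1 1.01 ± 0.37, and none of these passed. Of the 14 dehydrin and other LEA genes tested, 9 had their lowest change in the protophloem, LTI30 and LEA4-5 among them, 3 in the endodermis, 1 in the epidermis (AT3G17520) and 1 in the columella (COR47). The share of all probe sets with their lowest change in the protophloem was not counted, so this is not read as a trait of these genes. With the GAPDH covariate the LTI30 change was 2.08 in the protophloem and 1.62 in the cortex. AT2G42560 (0.22 ± 0.15) and AT2G46140 (0.11 ± 0.16) did not pass in the mean response.

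**Figure D4:**
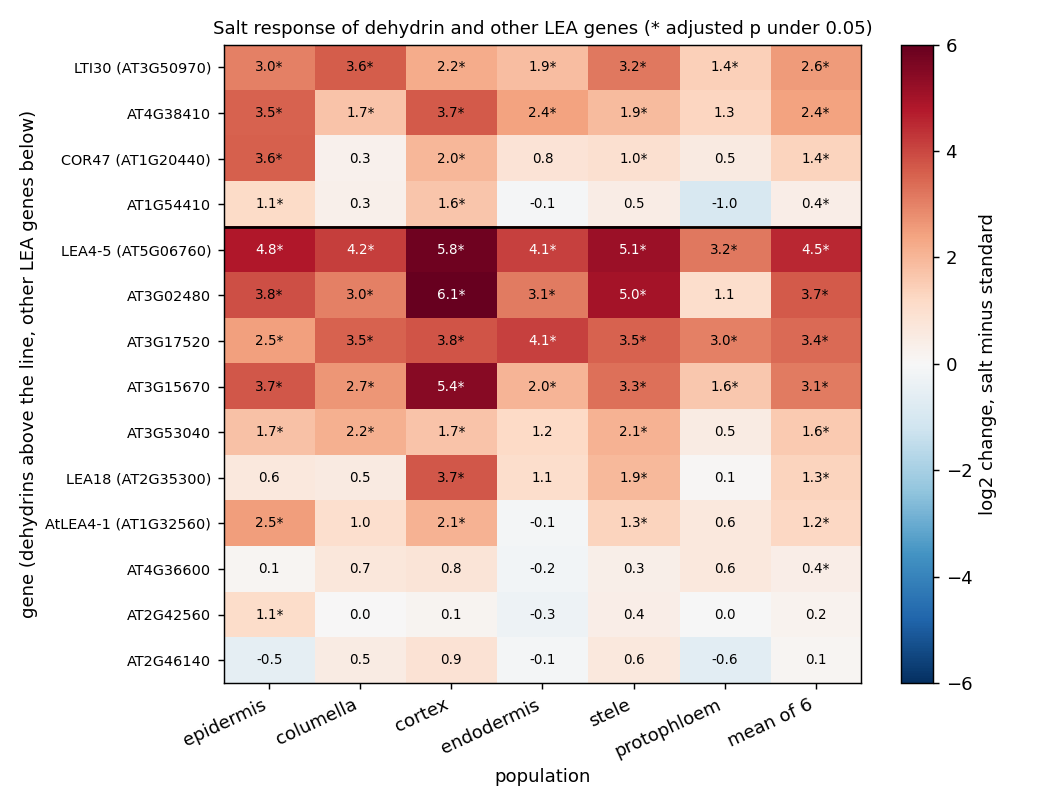
Change in log2(signal + 16), salt minus standard, of the 4 dehydrin genes (above the line) and 10 other LEA genes (below) that passed the filter, by population and averaged over the 6 populations; red is higher and blue lower with salt, and asterisks mark an adjusted p under 0.05. LEA4-5, AT3G15670, AT3G17520 and LTI30 carry an asterisk in each population, whereas COR47 carries one in 3.

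The lists of abscisic acid and drying response (27 loci) and of cold response (16 loci) could hardly be used. Only 2 and 1 of their loci had a probe set naming 1 gene in the platform table, and 1 gene in each passed the filter. COR15B, which encodes a chloroplast protein induced by cold, rose in the cortex (1.53 ± 0.31, adjusted p = 0.00032) at low signals of 122 ± 38.9 with salt and 30.5 ± 5.30 on standard medium, and had 0.25 ± 0.12 in the mean response (adjusted p = 0.101). Its partner COR15A did not pass the filter, with group means of at most 59.1. STZ (AT1G27730), a zinc finger repressor of stress responses, passed as higher in the cortex, the stele and the epidermis, by 1.86 ± 0.34, 1.46 ± 0.34 and 1.35 ± 0.34. In the columella STZ had -0.50 ± 0.34 (adjusted p = 0.320).

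Genes whose pattern over the 12 group means was most like each dehydrin were ranked by Pearson correlation of log2(signal + 16) among 9891 probe sets with 1 gene; the values describe 12 means that share arrays, and carry no test. The closest to COR47 were AT3G52220 (r = 0.957), AT5G51420 (0.953), AT1G07870 (0.939), BZIP60 (0.938), a bZIP transcription factor of the unfolded protein response, and AT5G47020 (0.932). The closest to LTI30 were AT5G03030 (0.943), LEA4-5 (0.934), AT4G33666 (0.930), the glucosyltransferase gene UGT73C7 (0.929) and AT1G73920 (0.910). Among the same probe sets LTI30 ranked 936 in likeness to COR47, and COR47 ranked 449 in likeness to LTI30. COR47 and LTI30 themselves had r = 0.616 over the 12 means, with 0.729 over the 6 salt means and 0.297 over the 6 standard means.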

How the data were processed

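Deposited values are 1 linear MAS5 signal intensity per probe set and array, per the submitters' processing notes; neither the MAS5 version nor its target is stated in the sources at hand. Trimmed by 2% at each end, array means lay between 250.02 and 250.03, so the authors had scaled them. RNA was amplified in 2 cycles, per the labels' protocols, which favours 3′ ends.

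Of 22810 probe sets on 36 arrays, 64 controls were dropped; 17633 exceeded the array's 40th percentile on 3 or more arrays and were tested. Genes were named from probe sets with exactly 1 gene in the platform table, through RefSeq TAIR10.1, whose coordinates are not used. On log2(signal + 16), 12 group means were estimated over all arrays (limma 3.58.1, R 4.3.3; lmFit, eBayes with trend; 24 residual degrees of freedom), and p-values were Benjamini-Hochberg adjusted over all probe sets tested. Permutations and figures used Python 3.11.15. The code was tested on simulated data. Alternatives are given in the closing section.

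The members and lists were chosen with earlier results of these data known. Besides both members, the text names list genes, markers and, for each member, the 5 probe sets of highest correlation. Probe and gene sequences were not used here.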

Additional observations from a re-analysis of the deposited data

Results flagged for a closer look

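The responses to salt differed between populations for both dehydrins by a test of the difference itself. COR47 had a moderated F of 16.04 for the 5 differences between its 6 responses, and LTI30 had 5.02, in a test that 46.6% of probe sets passed. Against the mean of the other 5 populations, the COR47 response was 2.65 higher on the log2 scale in the epidermis, and differed by -1.29 in the columella and by -0.998 in the protophloem. The LTI30 response differed from that mean by -1.34 in the protophloem. With the GAPDH covariate the COR47 difference was 1.60 in the epidermis. Those in the protophloem were then 0.12 for COR47 and -0.34 for LTI30, and neither passed. The COR47 call in the columella was lost without any 1 of 5 arrays. The GAPDH ratio moved between media in the epidermis, the cortex and the protophloem, and COR47 stood near the top of the columella arrays on both media, as given with the results.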

How the results depend on the processing

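The alternatives were an offset of 1 or 64, quantile normalization, no filter, a filter at the 60th percentile, no mean-variance trend, the GAPDH covariate, the replicate block, a population's own 6 arrays, leaving out each array in turn, and, chosen after seeing the data, replicates 1 and 2 alone. LTI30 stayed past the test in 6 of 6 populations under each of them, as did COR47 in the epidermis and the cortex, and the mean within-array shift kept its sign and call in each setting it was computed for (offsets, quantile normalization, block, left-out arrays, replicates 1 and 2). Of 305 values of both genes under other settings 287 kept their direction and side of the threshold, as did 1168 of 1188 with 1 array left out. These totals do not measure stability. A response rests on its population's own 6 arrays, so most omissions cannot move it, and the filters, trend and block leave every estimate unchanged. Leaving out 1 array ended the COR47 call for 5 arrays in the columella difference, 4 in the protophloem difference and 4 in the stele response. It ended the LTI30 protophloem difference for 3.

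On replicates 1 and 2 alone the COR47 response passed in the endodermis (1.13) and the protophloem (0.58). Against the mean of the other 5, the COR47 cortex (1.14) and the LTI30 columella (1.43), endodermis (-1.24) and stele (1.07) then passed. After quantile normalization the COR47 protophloem response passed (1.10), the COR47 cortex difference from the other 5 turned to -0.49, that of the protophloem was -0.18 and no longer passed, and that of the LTI30 cortex passed at -1.28. It moved the median of all probe sets from -0.23 to -0.04 in the columella, from 0.17 to -0.04 in the cortex and from -0.23 to -0.11 in the stele. With the GAPDH covariate the COR47 protophloem response passed (1.24) and its difference from the other 5 was 0.12; that of LTI30 turned to -0.36 in the epidermis, passed in the columella (1.42) and no longer passed in the protophloem (-0.34). Without the filter the COR47 differences of -1.29 in the columella and -0.998 in the protophloem missed the threshold (adjusted p = 0.0566 and 0.0536, limma). The cause of these changes was not tested.

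With 1 array left out, the COR47 response ran from 0.58 to 1.12 in the endodermis and from 0.88 to 1.10 in the stele. The COR47 difference from the other 5 ran from -1.54 to -1.04 in the columella, from 0.49 to 1.27 in the cortex and from -1.10 to -0.86 in the protophloem. That of LTI30 ran from 1.00 to 1.61 in the columella, from 0.39 to 1.21 in the stele and from -1.67 to -1.13 in the protophloem.

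Same-numbered salt and standard arrays deviated together with r between -0.115 and 0.445, above 0.1 in 8 of 18 pairs, and 7 salt arrays were most like their own number, so the numbers were not taken to pair the arrays. With the replicate block the COR47 cortex difference of 0.77 from the other 5 passed (adjusted p = 0.0397, limma), and no other call of the responses changed.

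Neighbouring populations changed places in several cases, none of them called after the change; neighbours that came to pass without changing places are given with the order of the populations. For COR47 on standard medium cortex minus stele was -0.0051, and 0.29 with quantile normalization, 0.35 with the covariate, 0.049 on replicates 1 and 2, and -0.052 to 0.083 with an array left out; stele minus protophloem was 0.41 with the covariate. For COR47 with salt, quantile normalization gave -0.020 for columella minus protophloem, -0.081 for cortex minus endodermis (-0.011 to 0.80 with an array left out) and 0.032 for stele minus protophloem (0.085 with the covariate). For LTI30 on standard medium epidermis minus stele was 0.83 with the covariate, 0.26 on replicates 1 and 2 and -0.44 to 0.38 with an array left out, and cortex minus endodermis was -0.26 on replicates 1 and 2 and -0.18 to 0.27 with an array left out. For LTI30 with salt epidermis minus columella was 0.11 with quantile normalization, 0.086 with the covariate and -0.52 to 0.0038 with an array left out; columella minus stele was 0.16 on replicates 1 and 2 and -0.23 to 0.30 with an array left out; endodermis minus stele was -0.16 with quantile normalization.

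Counts of probe sets called in either direction moved by over 1.5 times as follows. With the covariate 2957 were called in the epidermis (4983 otherwise), 3193 in the cortex (6719) and 2287 in the protophloem (4273). On replicates 1 and 2 it was 6047 in the columella (2503 otherwise), 1968 in the endodermis (444) and 7196 in the stele (4469). On a population's own 6 arrays it was 8046 in the epidermis, 539 in the columella, 172 in the endodermis and 1887 in the protophloem. With 1 array left out it ran from 629 to 4048 in the columella, 222 to 911 in the endodermis, 2245 to 5798 in the stele and 2253 to 4679 in the protophloem.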
